A study of Anopheles gambiae with 18 samples.

Results

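The posterior midgut of the malaria mosquito Anopheles gambiae was dissected into a front part, called anterior-posterior in the study, and a rear part, called posterior-posterior. Both came from 4-day-old females of the Keele strain that had been kept on sugar and had not taken blood. The methods do not give the number of guts per sample. RNA of each part was labelled with Cy5 and hybridized on a whole-transcriptome oligonucleotide array against Cy3-labelled RNA of whole midguts from unfed females of the same age. The 3 arrays of the front part and the 3 arrays of the rear part were used here, of 18 arrays in the series. Front and rear never met on 1 array, so that they were compared as the difference of 2 log2 ratios. The whole-midgut samples of the front arrays and those of the rear arrays are labelled apart, and the difference takes them as alike. No dyes were swapped.

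The posterior midgut is the widest part of the mosquito gut. It receives the blood meal, secretes trypsins and peptidases into it, wraps it in a chitinous sheath that peritrophins bind, and takes up the products. Malaria parasites cross its epithelium as ookinetes, where they meet nitric oxide and complement-like proteins of the mosquito. The front part adjoins the narrow anterior midgut and the rear part leads to the hindgut, near the place where the Malpighian tubules join.

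Values were available on all 6 arrays for 13456 of 14198 transcripts, and these were compared. Transcripts are called by the letters EN and the last 6 digits of their Ensembl number, and they carry a gene name only where the study's annotation text gave one. Every array was set to a median of 0. A positive centred log2 ratio therefore says that a transcript stood above the median transcript of its array, and a positive front-minus-rear difference says that it stood further above it in the front part.

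No transcript was called different between the front and the rear of the posterior midgut. A call needed a limma p-value under 0.05 after Benjamini-Hochberg adjustment over the 13456 transcripts and a difference of at least 2-fold, and 0% of transcripts met it in either direction. The lowest adjusted p was 0.993. Before adjustment, 595 transcripts had a p under 0.05, which is 4.42% of those tested. Of these, 467 were higher in the front (3.47%) and 128 in the rear (0.951%).

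The absence of calls has to be read with the width of the intervals. The median standard error of a difference was 0.51 and the median 95% interval reached 1.12 log2 units to each side, a factor of 2.17. A 2-fold difference of a typical transcript was thus within the error of 3 arrays against 3. Without regard to p, 834 transcripts differed at least 2-fold toward the front (6.2%) and 291 toward the rear (2.16%). All 3 front arrays lay above all 3 rear arrays for 829 transcripts (6.16%), and below them for 387 (2.88%).

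**Figure D1:**
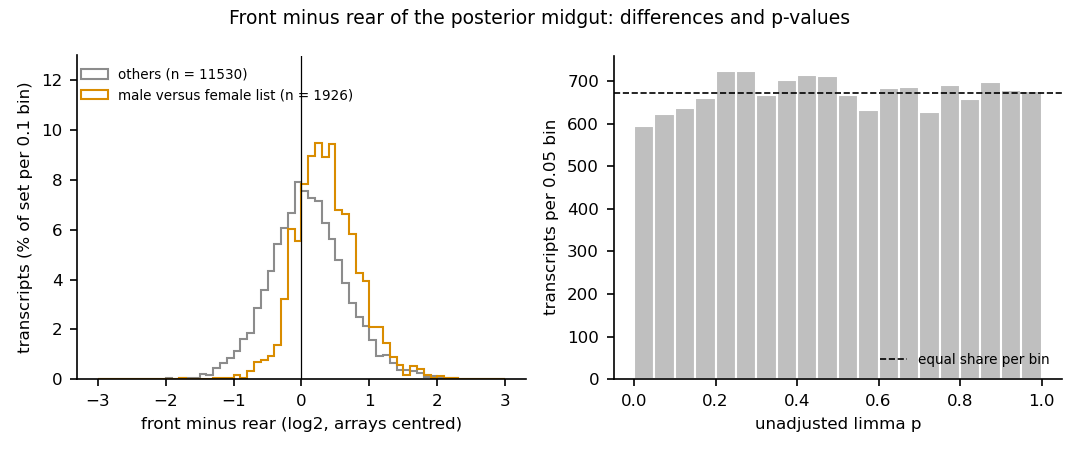
Left, front-minus-rear difference (log2) as the percent of transcripts per bin, for 1926 transcripts that the study listed as measured in the male versus female comparison and for the 11530 others. Right, number of transcripts per bin of unadjusted limma p, with a dashed line at an equal share in every bin. The listed transcripts sit to the right of the others, and the lowest bin, with 595 transcripts, does not rise above the dashed line.

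Arrays of the same part were about as unlike as arrays of different parts. Over all transcripts tested, the 3 pairs of front arrays had Pearson's r of 0.24 to 0.45 (median 0.29), the 3 pairs of rear arrays 0.10 to 0.40 (median 0.12), and the 9 pairs of a front with a rear array 0.06 to 0.61 (median 0.20). These are correlations across transcripts, which share the array and its probes. The highest was that of front array 1 with rear array 3. Where the array carried a second spot for a transcript, marked as a repeat in the deposited table, the ratios of the 2 spots had an r between 0.02 and 0.27 on the 6 arrays. Over 719 such pairs the front-minus-rear differences of the 2 spots had an r of 0.08. It was 0.23 for the 210 pairs on the male versus female list and 0.02 for the other 509. Whether both spots hold the same oligonucleotide is not stated in the sources used here.

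Of the digestive and immune transcripts that the study names and that were followed here, the one with the largest difference was nitric oxide synthase, NOS (EN019316), the enzyme that makes the nitric oxide met by parasites in the midgut wall. Its centred log2 ratios were 2.47, 1.95 and 2.28 on the front arrays and -0.01, 0.23 and 0.40 on the rear arrays. The groups did not overlap, and the lowest front array lay more than 1 log2 unit above the highest rear array. As deposited, the ratio to whole midgut was 1.12, 1.29 and 1.57 in the front and 0.41, 0.49 and 0.52 in the rear. These deposited ratios were above 1 on every front array and below 1 on every rear array, while on the centred scale rear arrays 2 and 3 were above the array median. The difference was 2.03 ± 0.43 (SE, n = 3 against 3), or 4.08-fold, with a 95% interval from 1.09 to 2.97. It had the second-lowest unadjusted p of all transcripts, 0.00058, and an adjusted p of 0.993 in limma, so that it was not called. NOS was measured by 1 spot. The study lists it among transcripts enriched in the front over whole midgut, on the strength of these same front arrays. Another transcript annotated as nitric oxide synthase, EN009330, was a mean of 3 spots and differed by 0.06 ± 0.46. Its values were 0.54, -0.51 and -0.02 in the front and 0.03, 0.13 and -0.32 in the rear, with overlapping arrays.

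The lowest p belonged to EN018500, annotated as a nucleosome assembly protein, a histone chaperone. Its centred ratios were 2.89, 2.15 and 2.37 in the front and 0.38, 0.03 and 0.60 in the rear. The difference was 2.13 ± 0.45 (unadjusted p = 0.00052, adjusted p = 0.993, limma). A second transcript with the same annotation, EN010302, went the other way by 1.75 log2 units, with -0.14, 0.00 and -1.08 in the front and 2.20, 2.05 and -0.24 in the rear, and rear array 3 fell among the front arrays.

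The other 8 annotated transcripts with the lowest p toward the front were of several kinds. They were 2 serine proteases, a chromodomain helicase of the chromatin remodelling type, centaurin alpha 2, a regulator of small GTPases, a pre-mRNA processing factor, a Rab protein of vesicle traffic, a regulatory subunit of the 26S protease and a mitochondrial seryl-tRNA synthetase. Their differences, with those of NOS and EN018500, lay between 1.81 and 2.26 log2 units, with unadjusted p from 0.00052 to 0.0026, and in each of the 10 all front arrays lay above all rear arrays. Serine protease EN017557 had 2.17, 1.06 and 2.27 in the front and -0.60, 0.21 and -0.75 in the rear. EN012886, similar to the Drosophila protease gastrulation defective, had 1.80, 0.74 and 2.21 in the front and -0.59, -0.22 and -0.88 in the rear. On both, front array 2 was the lowest of the front arrays, as it was for EN022335, the chromodomain helicase, with 2.22, 1.06 and 2.75. The Rab transcript EN026691 had 2 spots, with differences of 2.47 ± 0.44 on one and 1.30 ± 0.61 on the repeat, and its front array 2 read 2.40 on the first and -0.15 on the second.

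Without annotation, EN025923 was the most even: 2.54 on each of the 3 front arrays against 0.86, 1.00 and 0.37 in the rear. EN013595 had the largest difference toward the front of all transcripts, 2.54 ± 0.57 (unadjusted p = 0.0009). Its rear values ran from -1.74 to -0.16, and front array 2 was again the lowest of the front arrays, at 0.91.

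Toward the rear, the 10 transcripts with the lowest p had no annotation. EN013688 led them, with -1.37, -1.41 and -1.73 in the front and 0.04, 0.58 and 0.57 in the rear, a difference of -1.90 ± 0.43 (unadjusted p = 0.00099, adjusted p = 0.993, limma). Its deposited ratios were 0.078, 0.125 and 0.097 in the front and 0.427, 0.619 and 0.582 in the rear. These lay below 1 in both parts, while on the centred scale the rear arrays were above their median. EN012089 followed at -1.76 ± 0.49 and EN010480 at -1.64 ± 0.46. Over these 10, the deposited front ratios lay between 0.057 and 0.375. Each of the 10 had at least 1 array on which the ratio equalled a fraction of small whole numbers, with a denominator of 10 or less, as against 4 of the 10 with the lowest p toward the front and 75.8% of all tested transcripts. Such ratios were commonest on front array 2, with 26.8% of the male versus female list and 70.85% of the other transcripts. The other arrays had between 4.1% and 20.8% in either set. The part of such ratios in the differences was not tested here, beyond a fit without them.

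Of the annotated transcripts, those with the lowest p toward the rear were weaker. The first was EN028449, with the text of an equilibrative nucleoside transporter, at -0.08, -1.74 and -0.96 in the front and 0.60, 0.54 and 0.47 in the rear. Its difference was -1.46 ± 0.50 (unadjusted p = 0.014). Annexin EN015482, a calcium-dependent membrane-binding protein, was the tightest, with -1.13, -1.22 and -0.95 against 0.04, 0.12 and 0.09, a difference of -1.18 ± 0.42. A cuticle protein, EN012804, differed by -1.39 ± 0.50 and a cytochrome P450, EN010558, by -1.15 ± 0.49. A phosphoinositide-dependent kinase (EN011675), a ubiquitin ligase (EN008105), a zinc finger protein (EN015471), a protein of the CDK5 activator-binding type (EN027202) and an acylphosphatase (EN016557) completed the set with EN010302. In 3 of the 10 the arrays of both parts overlapped. None of these 10 annotated transcripts was on the male versus female list, and none of the 10 without annotation that led toward the rear.

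**Figure D2:**
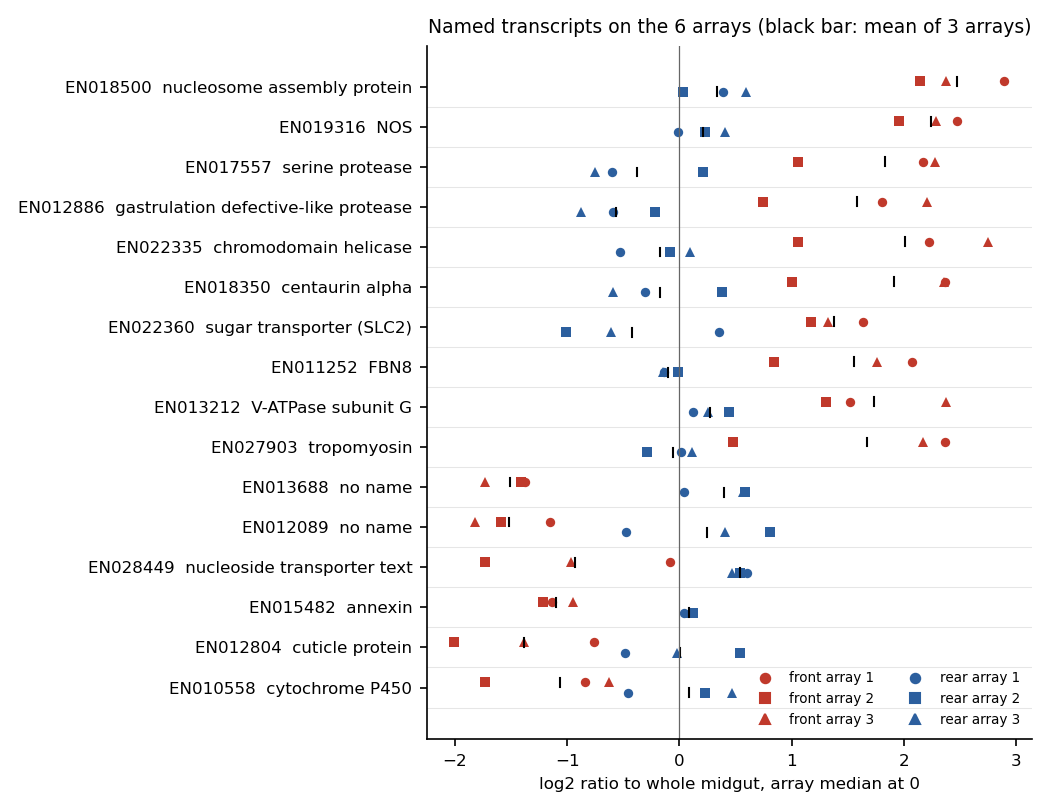
Centred log2 ratio to whole midgut (x axis) of 16 transcripts on each front array (red) and rear array (blue), with black bars at the mean of 3 arrays. NOS and EN018500 have all front arrays at 1.95 or more and all rear arrays at 0.60 or less, and front array 2 (square) is the lowest front array for most of the upper transcripts.

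For the trypsins that unfed females carry before a blood meal, the arrays of both parts overlapped. Trypsin 3 (EN006721) had centred ratios of 2.31, 2.65 and 2.14 in the front and 1.27, 1.91 and 2.52 in the rear. Trypsin 4 (EN018384) had 2.31, 2.36 and 2.07 against 1.27, 1.76 and 2.13. Both were well above the array median in both parts, with differences of 0.47 ± 0.47 and 0.53 ± 0.44, both within the error. Trypsin 7 (EN018316) differed by -0.14 ± 0.50. Trypsin 5 (EN018317) differed by 0.05 ± 0.69, and its front arrays ran from -0.66 to 2.21.

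The trypsins show how the scale works. Before centring, the median deposited log2 ratio was -2.31, -1.59 and -1.63 on the front arrays and -1.27, -1.27 and -1.35 on the rear arrays. A transcript with a Cy5/Cy3 ratio of 1 on every array would therefore come out 0.55 log2 units, or 1.46-fold, higher in the front after centring. The difference of trypsin 3 was -0.08 before centring and that of trypsin 4 was -0.02. On front array 1 both had a ratio of 1.001 and on rear array 1 both had 0.999. On rear array 1, 96 spots held the ratio 0.999, against 12 at 1 and none at 0.998 or 1.001, and 62 of the 96 belonged to the male versus female list. On front array 1, 28 spots held 1.001, against 5 at 1.002 and 7 at 1. The 94 transcripts with such a spot on rear array 1 included 21 cytosolic ribosomal proteins, 5 trypsins and other serine proteases, and 3 antimicrobial peptides or lysozymes, and 20 of them were also at 1.001 on front array 1. No signal intensities came with the ratios, and why these spots share a ratio was not tested.

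Among 37 trypsins and other serine proteases measured, 3 were 2-fold or more higher in the front and 1 in the rear. The front share was 8.11%, beside 6.2% of all transcripts and 8.57% of the male versus female list. Toward the rear, 2.16% of all transcripts and 0.208% of that list differed as much. The median difference of the 37 was 0.36. That is above the 0.12 of all transcripts and next to the 0.35 of the male versus female list, which holds 21 of the 37. After EN017557, a trypsin-family transcript, EN024348, chosen here after its values were seen, had the next difference, 1.39 ± 0.49, with non-overlapping arrays. EN012201 was lowest, at -1.25 ± 0.71, with a front array 2 of -2.50 beside 0.74 and -0.24. A further 8 members were listed by the study only for the gut compartments, thus chosen on arrays that include these, and 3 of them were at least 2-fold higher in the front.

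The 24 amino-, carboxy- and other peptidases had a median difference of 0.19. Carboxypeptidase EN021052 had 2.28, 2.40 and 2.25 in the front and 1.27, 1.39 and 2.30 in the rear, and EN020553 had 2.59, 1.92 and 0.70 against 1.68, 0.14 and 1.83. An aminopeptidase N, EN002729, an enzyme of the brush border, was 1.13 ± 0.71 higher in the front, but front array 3 (-0.59) lay below 2 of the rear arrays. For lipid and carbohydrate digestion, 14 transcripts had a median of 0.40. The extremes were both triacylglycerol lipases of the gastric type, EN029182 at 1.22 ± 0.61 and EN014736 at -0.97 ± 0.46, and for the latter the arrays did not overlap.

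Peritrophins and other chitin-binding proteins, which build the sheath around the blood meal, gave a median of 0.16 over 18 transcripts. Peritrophin EN023523 had 2.34, 2.54 and 1.95 in the front and 1.27, 1.67 and 2.20 in the rear, with a difference of 0.57 ± 0.46. Peritrophin EN013392 differed by -0.17 ± 0.81, and its front arrays were spread from -1.55 to 2.13. The largest difference was that of EN026404, at 1.33 ± 0.70, with overlapping arrays.

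Transport proteins were described in 3 groups. V-ATPase, the proton pump of the apical membrane, was represented by 13 transcripts of its subunits. Of these, 12 had a positive difference, beside 59.6% of all transcripts and 80.7% of the male versus female list. At least 2-fold higher in the front were 2 (15.4%, beside 6.2% of all transcripts and 8.57% of that list). Subunit G (EN013212) had 1.52, 1.31 and 2.38 in the front and 0.12, 0.44 and 0.26 in the rear, a difference of 1.46 ± 0.46 (unadjusted p = 0.0086, adjusted p = 0.993, limma). Another transcript with the subunit G annotation, EN018502, differed by 0.69 ± 0.52, with overlapping arrays. Subunit H (EN011012), chosen after its values were seen, had 1.64, 1.53 and 0.99 against 0.39, 0.38 and 0.20. Subunit E (EN014885) was at -0.33 ± 0.45. The subunits work in 1 complex. The group median, 0.40, was close to that of the male versus female list, which holds 10 of the 13.

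Of 27 nutrient transporters, 3 were at least 2-fold higher in the front, each with non-overlapping arrays, where 3.09% of all transcripts met both, and the median was 0.32. A facilitated glucose transporter of solute carrier family 2, EN022360, led with 1.63, 1.17 and 1.32 in the front and 0.35, -1.01 and -0.61 in the rear, a difference of 1.80 ± 0.49 (unadjusted p = 0.0033). A second member of that family, EN013880, also chosen after its values were seen, differed by 1.24 ± 0.46. Among 26 ion and water transport proteins the median was 0.13. Carbonic anhydrase EN001278, which supplies bicarbonate, had a difference of 0.89 ± 0.42 with non-overlapping arrays, but its 2 spots gave 1.58 ± 0.49 and 0.19 ± 0.54. A voltage-gated potassium channel, EN003834, was lowest at -1.07 ± 0.58.

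No antimicrobial peptide differed between front and rear beyond the error of the arrays. Gambicin (EN013255) had 2.38, 1.86 and -0.20 in the front and 1.27, 0.33 and 1.82 in the rear. Cecropin CEC3 (EN011995) had 2.31, 1.43 and -2.38 against 1.27, 0.54 and 1.47, so that front array 3 stood over 3 log2 units below the other front arrays. Cecropin CEC2 (EN011963) differed by 0.30 ± 0.55. Defensin (EN015621) had 1.69, 1.12 and 0.53 against 0.89, 0.02 and -0.25, and its difference of 0.89 ± 0.50 was the largest of the 7 antimicrobial peptides and lysozymes measured, with overlapping arrays.

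Of the other factors that act on malaria parasites, TEP1 (EN016857), a complement-like protein that binds ookinetes, differed by 0.75 ± 0.44 (unadjusted p = 0.12). Its values were 0.42, 1.08 and 0.96 in the front and 0.43, -0.12 and -0.09 in the rear. They are means of 4 spots, of which 3, each named for an exon, had values on all arrays, with differences of 1.57 ± 0.54, 0.46 ± 0.47 and 0.96 ± 0.56. FBN7 (EN008282), of the fibrinogen-related proteins that recognise microbes, differed by 0.58 ± 0.49. Its 3 spots did not give 1 answer, with 2.00 ± 0.70 and -0.06 ± 0.44 for the 2 exons and -0.22 ± 0.74 for the transcript. The study lists TEP1 and FBN7, like NOS, as enriched in the front over whole midgut, which is not a comparison with the rear. As deposited, the front ratios to whole midgut were 0.27, 0.70 and 0.62 for TEP1 and 0.19, 0.27 and 0.65 for FBN7. In the rear they were 0.56, 0.38 and 0.37 for TEP1 and 0.29, 0.39 and 0.27 for FBN7. Of the lectins that shield ookinetes from melanization, CTL4 (EN021138) differed by -0.55 ± 0.48 and CTLMA2 (EN020902) by -0.22 ± 0.44, with overlapping arrays.

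The fibrinogen-related protein FBN8 (EN011252) had the largest difference among 47 immune recognition proteins. Its values were 2.07, 0.84 and 1.76 in the front and -0.14, -0.01 and -0.15 in the rear, and the difference was 1.66 ± 0.47 (unadjusted p = 0.0045, adjusted p = 0.993, limma). Both of its spots leaned the same way, with 1.93 ± 0.45 and 1.38 ± 0.56. At the other end was FBN12 (EN020519), with 0.03, -0.74 and -0.47 against 0.69, 0.61 and 0.30. In all, 7 of the 47 had every front array above every rear array (14.9%, where all transcripts had 6.16% and the male versus female list 8.93%) and 2 had the reverse. Among those 7 were the beta-glucan binding proteins GNBPB2 (EN017017) and GNBPB3 (EN017035), chosen after their values were seen. They differed by 0.64 ± 0.43 and 0.76 ± 0.43, each from 3 spots. The median of the group was 0.24. Of the 18 CLIP proteases, serpins, prophenoloxidases and signalling proteins, NOS (EN019316) was the only one with a difference of 2-fold or more. The lowest was prophenoloxidase 9 (EN010740) at -0.42 ± 0.50.

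**Figure D3:**
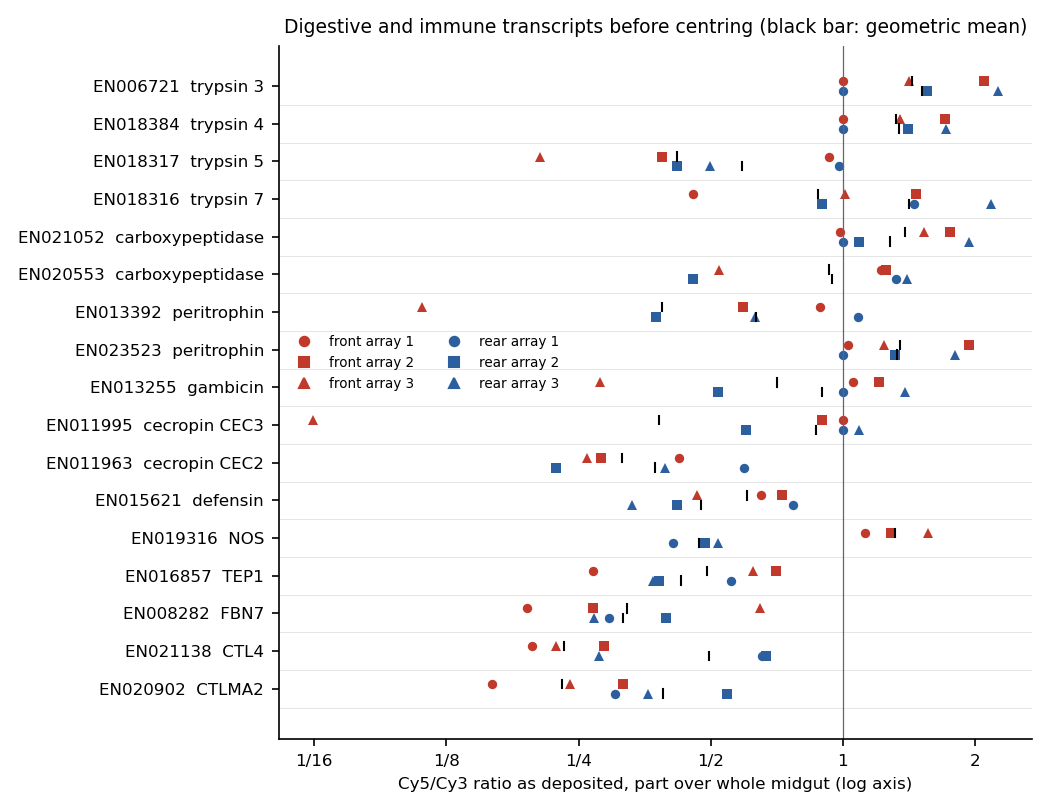
Deposited Cy5/Cy3 ratio, part over whole midgut (log axis), of digestive and immune transcripts on each front (red) and rear (blue) array before centring, with black bars at the geometric mean. NOS has its 3 front arrays above 1 and its 3 rear arrays at 0.52 or less, while trypsins 3 and 4 read 1.001 on front array 1 and 0.999 on rear array 1.

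Housekeeping groups had positive median differences, with no member called. Without centring these medians were below 0. After quantile normalization they were 0.02 for cytosolic and 0.05 for mitochondrial ribosomal proteins, 0.02 for the proteasome and -0.05 for the respiratory chain. Of 62 cytosolic ribosomal proteins, 54 had a positive difference, with a median of 0.49 and a range from -0.30 to 1.34. For 36 proteins of the respiratory chain and ATP synthase the median was 0.42, for 15 mitochondrial ribosomal proteins 0.46 and for 11 proteasome subunits 0.40. Over the whole male versus female list, of which most of these are members, 80.7% of 1926 transcripts had a positive difference, against 56.1% of the 11530 others and 59.6% of all. On that list, 165 transcripts (8.57%) stood 2-fold or more toward the front and 4 (0.208%) toward the rear. The medians of the 2 sets were 0.35 and 0.08.

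The offset of the listed transcripts differed between arrays of 1 part. The median of the listed transcripts stood 1.41, 1.12 and 0.24 log2 units above that of the others on the front arrays, and 0.49, 0.11 and 1.01 on the rear arrays. For the cytosolic ribosomal proteins the medians were 2.23, 1.90 and 0.67 in the front and 1.21, 0.41 and 1.60 in the rear. For the respiratory chain they were 2.14, 1.70 and 0.12 against 1.12, 0.21 and 1.40. Front array 3 was below rear arrays 1 and 3 in both groups, so that the parts overlapped. Before centring, the listed transcripts had a median difference of -0.20 and all transcripts one of -0.42, so that both signs turned. The median of the cytosolic ribosomal proteins was then -0.05 and that of the respiratory chain -0.13.

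**Figure D4:**
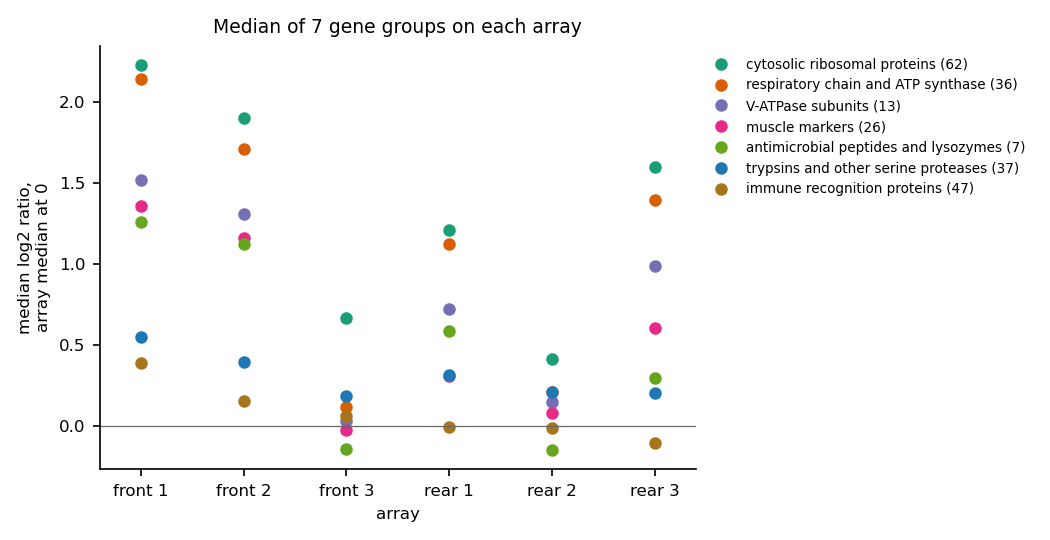
Median centred log2 ratio of 7 gene groups (y axis, number of transcripts in brackets) on each of the 6 arrays. Front arrays 1 and 2 and rear arrays 1 and 3 have the ribosomal and respiratory groups at 1.12 or more, while front array 3 and rear array 2 have them at 0.67 or less.

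Among detoxification enzymes, the 36 cytochrome P450s had a median of 0.27. EN023864 was highest, with 2.44, 0.37 and 2.73 in the front and -0.01, 0.00 and -0.11 in the rear, a difference of 1.89 ± 0.61. For 4 of the 36 all front arrays lay above the rear arrays (11.1%, beside 6.16% of all transcripts and 8.93% of the male versus female list, which holds 25 of them). For 1, EN010558, they lay below, as for 2.88% of all transcripts. The 25 glutathione and glucuronosyl transferases had a median of 0.35, between EN011770 at 1.57 ± 0.61 and EN016850 at -0.66 ± 0.45, both glutathione S-transferases.

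Markers of other tissues that a dissected part could carry were examined in the same way. A 2-colour ratio gives no level, so that these values show only where a marker stood relative to the array median. Of 26 muscle transcripts, 23 had a positive difference, beside 59.6% of all transcripts and 80.7% of the male versus female list. Their median was 0.47. At least 2-fold higher in the front were 4 (15.4%, beside 6.2% of all transcripts and 8.57% of that list). All front arrays lay above the rear arrays in 5 of the 26 (19.2%, against 6.16% of all transcripts and 8.93% of the male versus female list, which holds 18 of them), and in none was it the reverse. Tropomyosin EN027903, which regulates contraction, had 2.36, 0.47 and 2.17 in the front and 0.01, -0.29 and 0.11 in the rear, a difference of 1.72 ± 0.55 (unadjusted p = 0.0093, adjusted p = 0.993, limma). Of the other 4, named after their values were seen, a calponin-like protein (EN011363) and 3 myosins (EN012395, EN014221 and EN028560) differed by 0.76, 0.81, 1.33 and 1.22. A second calponin-like protein, EN019575, was at -0.64 ± 0.64. The medians of the muscle group were 1.36, 1.16 and -0.02 on the front arrays and 0.31, 0.08 and 0.61 on the rear arrays, and thus overlapped. The group's median difference was -0.07 without centring and 0.14 after quantile normalization. The part of muscle content in the other differences was not tested.

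Malpighian tubule markers numbered 7, with a median of 0.19 and none past 2-fold. They ran from the sodium potassium chloride cotransporter EN029545 at -0.30 ± 0.45 to the organic cation transporter EN020400 at 0.78 ± 0.58. Transferrin EN020947, an iron carrier, was highest of 10 fat body and blood cell markers at 1.20 ± 0.51, with rear array 3 (1.30) above front array 3 (1.18). The only groups with a median below 0 were 7 peptide hormones and synaptic vesicle proteins, at -0.20, and 7 odorant binding proteins, at -0.17. In the former the synaptic vesicle protein SV2 (EN013027) was lowest, with -1.66, -1.41 and -0.37 in the front against -0.62, 0.40 and 0.22 in the rear, and synaptotagmin EN020647 was highest at 0.21 ± 0.45. The 10 cuticle proteins had a median of 0.04, and their highest, EN026730, rested on a value of -4.05 on rear array 1 alone.

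Over the 22 groups together, 478 transcripts were measured whose listing by the study did not use these arrays. Of these, 23 had an unadjusted p under 0.05, or 4.81% beside 4.42% of all transcripts, and 42 had all front arrays above all rear arrays, or 8.79% beside 6.16% of all transcripts and 8.93% of the listed ones. The reverse held for 9, or 1.88% beside 2.88% of all transcripts. The medians of 19 groups lay above that of all transcripts, and those of 8 above that of the male versus female list. On this scale, 20 of the 22 medians were above 0. Without centring 0 of 22 were, with arrays centred on the male versus female list 7, and after quantile normalization 12. Arrays scaled to equal spread gave 17, and listed and other transcripts centred apart gave 15. Each of the 20 thus turned below 0 on at least 1 other scale. The medians of the peptide hormone and odorant binding groups were below 0 on every scale tried.

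**Figure D5:**
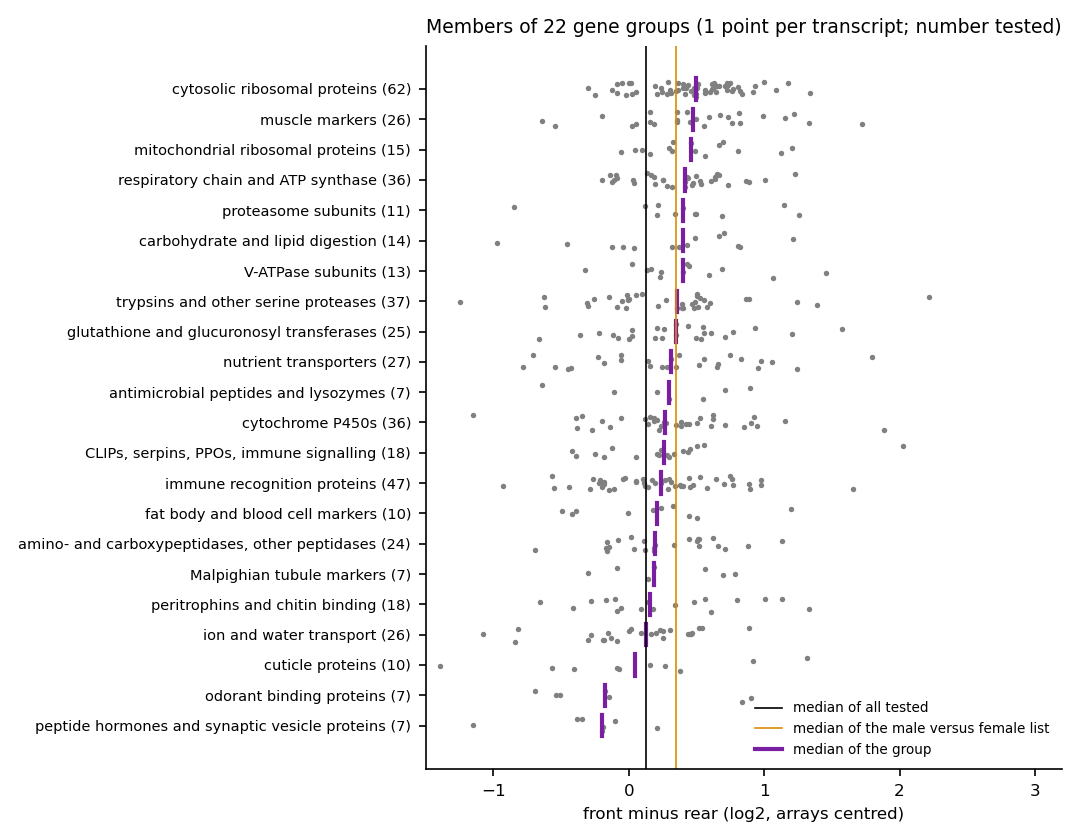
Front-minus-rear difference (log2) of every measured member of 22 gene groups, 1 point per transcript, with the number measured in brackets, the group median as a purple bar and lines at the medians of all transcripts (0.12) and of the male versus female list (0.35). Group medians run from -0.20 to 0.49, and the spread within each group exceeds the spacing between their medians.

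On the centred ratios of each part to whole midgut, the same fit called 574 transcripts at least 2-fold above the array median in the front (4.27%) and 16 below it (0.119%). These calls are against the array median and not against a deposited ratio of 1. In the rear it called none in either direction, with a lowest adjusted p of 0.18 and 1235 transcripts at an unadjusted p under 0.05. Calls in 1 part and not in the other do not show that the parts differ, and no such transcript passed the test of the difference itself. Of the 574, 311 were on the male versus female list. Against the array median, trypsins 3 and 4 had an adjusted limma p of 0.009 in the front and 0.18 in the rear. Their differences between the parts were within the error.

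Other arrays of the series gave a position along the gut. Against the whole midgut, the anterior midgut arrays had a centred mean of 0.58 for NOS (SD 0.75, n = 3) and 0.89 for EN018500 (SD 0.70), between their values in the front and rear of the posterior midgut. The front arrays did not overlap the rear arrays and lay 2-fold or more above them for 416 transcripts (3.09%), and below them for 122 (0.907%). Of the 416, 257 were above the median in the anterior midgut (61.8%). Of the 122, 24 were (19.7%), and of all tested transcripts 47.4%. The male versus female list held 90 of the 416 (21.6%), 0 of the 122 and 14.3% of all. Listed transcripts had a median of 0.74 in the anterior midgut and the others -0.11. The part of list membership in these shares was not tested. The anterior arrays used the same reference tissue and the same probes and dyes, so that the shares are a description. On arrays of cardia against posterior midgut, NOS had a mean of -0.28 (SD 0.23, n = 3), toward the posterior midgut.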

How the data were processed

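The table deposited by the authors gives every spot as log2 of its Cy5/Cy3 ratio. The authors scanned the arrays with GenePix and state a signal threshold, LOWESS normalization and a t-test, but the deposited log2 ratios show neither threshold nor normalization, and no intensities were used here. On rear array 2, 8 spots carried a placeholder (a ratio of 100000) and were left out. Of 15495 spots, those of 1 transcript were averaged (1152 tested transcripts had more than 1), each array was centred on its median, and 742 transcripts without a value on all 6 arrays were dropped. Groups were compared with limma 3.58.1 in R 4.3.3 (lmFit, eBayes, 7.32 prior degrees of freedom), tested on simulated data. Tables and plots used Python 3.11.15 with pandas 2.3.3, NumPy 2.4.6 and matplotlib 3.10.9. The precision is limited by the number of arrays, 3 per part, which the methods call biological replicates. Gene groups came from words in the study's annotation text, used where its lists agree (1783 transcripts). None of the Ensembl numbers matched the RefSeq gene table at hand, so that neither positions nor sequences are given. Named are the 10 transcripts with the lowest p past 2-fold in each direction, the same among annotated ones, the extremes of each group, and transcripts the study names. Members and groups were chosen with earlier results of these data known. The alternatives were other centrings and scalings, filters, fits, call rules and leaving out arrays.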

Additional observations from a re-analysis of the deposited data

How the results depend on the processing

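Other settings also called no transcript in either direction: 0 by limma and by the methods' t-test in 23 other fits, with the lowest adjusted p of a fit between 0.45 and 1.00. Leaving out each array in turn called 0 to 0 transcripts, and so did leaving out front array 3 and rear array 2 together, a choice made after seeing that they correlated least with the other arrays. The count at an unadjusted p under 0.05 moved more, from 249 with arrays centred on the male versus female list to 943 with array weights and 952 without centring, beside 595. Call rules without adjustment gave 834 transcripts toward the front and 291 toward the rear at 2-fold alone, and 246 and 54 by the methods' t-test at their threshold. The split of 2-fold differences depended on the scaling. Toward the front fell 74.1% of them, but 8.09% without centring, 17.3% centred on the male versus female list, 48.1% after quantile normalization and 41.7% over the 3252 transcripts left without ratios of small whole numbers. The median difference of all transcripts was 0.12 here, -0.42 without centring and -0.27 centred on that list. Counts at 2-fold toward front and rear were then 161 and 1828, and 240 and 1151. Front and rear arrays of the same number did not deviate together (r of -0.19, -0.17 and -0.36), so that no pairing by number was seen. Across numbers, r was 0.30 for front 1 with rear 3, 0.17 for front 2 with rear 1 and 0.31 for front 3 with rear 2. The remaining pairs had -0.15, 0.04 and 0.05. The labels give no pairing, and only a block by array number was fitted. With the replicate block 0 transcripts were called, and 346 had an unadjusted p under 0.05.

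All 35 transcripts named for their low p kept their direction in every fit that held them. They were chosen on these same arrays for a low p and a difference past 2-fold. A kept direction was thus largely fixed by that choice and is no further evidence. NOS lay between 1.48 and 2.17, with an adjusted p from 0.45 to 1.00. Of 75 transcripts followed through the fits, 15 changed sign in at least 1, and none of these was called in any. Without centring the differences were -0.0778 for trypsin 3, -0.0202 for trypsin 4, -0.49 for trypsin 5, -0.0257 for carboxypeptidase EN020553, -0.34 for gambicin, -0.25 for cecropin CEC2 and -0.34 for synaptotagmin. After quantile normalization they were -0.29 for trypsin 3, -0.11 for trypsin 4, -0.47 for trypsin 5, -0.0245 for carboxypeptidase EN021052, -0.0663 for peritrophin EN023523 and -0.35 for gambicin. Centred on the male versus female list, and equally with listed and other transcripts centred apart, trypsin 5 was at -0.34, gambicin at -0.19, cecropin CEC2 at -0.10 and synaptotagmin at -0.19. With array weights, trypsin 5 was at -0.43, cecropin CEC2 at -0.15, synaptotagmin at -0.0098 and CTLMA2 at 0.0277. Arrays of equal spread gave -0.46 for trypsin 5 and -0.30 for gambicin, and leaving out ratios of small whole numbers -0.21, -0.0571 and, for synaptotagmin, -0.0596. Leaving out 1 array gave -0.76 to 0.67 for trypsin 5, -0.49 to 0.19 for trypsin 7, -0.0184 to 1.04 for EN020553, -1.002 to 0.84 for peritrophin EN013392, -0.31 to 0.98 for gambicin, -1.57 to 0.77 for cecropin CEC3, -0.15 to 0.62 for cecropin CEC2, -0.42 to 0.0048 for CTLMA2, -0.0288 to 0.37 for synaptotagmin and -0.20 to 2.13 for cuticle protein EN026730. Without front array 3 and rear array 2, peritrophin EN013392 was at 0.45, cecropin CEC3 at 0.50, CTLMA2 at 0.078 and prophenoloxidase 9 at 0.19, where leaving out 1 array gave -0.73 to -0.09. The cause was not tested. With 3 arrays per part and no intensities, weak spots could not be set apart from others.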
